A study of Rattus norvegicus with 12 samples.

Results

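Transcripts of 10 genes that mark nuclei around the arcuate nucleus of the hypothalamus (ARC) were followed across the 12 arrays of the study, with Pmch, which encodes melanin-concentrating hormone (MCH), at their centre. Of the others, 5 encode peptides (Hcrt, Trh, Avp, Oxt and Crh) and the remaining 4 encode transcription factors (Sim1, Otp, Pou3f2 and Pou3f3). Members were the probe sets whose platform annotation gives exactly 1 gene symbol, equal to one of these 10. Each gene had 1 such probe set, so 10 of 31042 probe sets, or 10 of 14217 genes with a probe set of their own symbol, are described. Pmch was chosen on its measured difference between the groups, so that difference is given as a description, with no test.

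The arrays measured RNA of the ARC, cut out of stained brain sections with a laser, from 6 recuperated and 6 control male Wistar rats aged 3 months, 1 animal per array. The mothers of the recuperated animals ate a diet of 8% protein while pregnant, and from postnatal day 3 these pups were suckled by control dams in litters cut to fewer animals, all male. Control animals were born to and nursed by dams on a control diet, in larger litters of both sexes. Both groups ate standard chow after weaning, and maternal diet and litter size cannot be told apart in this design. The RNA was amplified before it was hybridised to Affymetrix rat genome arrays.

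MCH neurons lie in the lateral hypothalamus and the zona incerta, project widely through the brain, and promote feeding. Orexin neurons, which use Hcrt, lie in the same region and sustain wakefulness. The paraventricular nucleus (PVN) and the supraoptic nucleus make vasopressin and oxytocin for release from the posterior pituitary, and the PVN also makes the releasing hormones of the thyroid and adrenal axes. The comparison over arrays describes how far transcripts of neighbouring nuclei varied between the captured samples, and whether the recuperated group differed in them. It cannot give the amount of such tissue in a sample.

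Avp, Oxt and Trh are the PVN peptide genes matched to a promoter in the RefSeq table (build GRCr8), and the 250 bases before their transcription starts are printed in the direction of transcription, to show the genes behind these signals. In all 7 of the 10 genes were matched, all but Pmch, Crh and Pou3f3. Capitals mark CACGTG, the core of the E-box bound by clock factors, and TGACC or its reverse complement GGTCA, the core of nuclear receptor sites. These motifs were searched on both strands and did not overlap each other.
Avp (chr3:138248523-138248772, minus strand): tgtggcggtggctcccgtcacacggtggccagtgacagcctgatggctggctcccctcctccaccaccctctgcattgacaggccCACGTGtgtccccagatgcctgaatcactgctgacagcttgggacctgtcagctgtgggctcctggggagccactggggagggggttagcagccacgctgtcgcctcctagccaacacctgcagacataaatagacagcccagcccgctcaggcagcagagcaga
Oxt (chr3:138235504-138235753, plus strand): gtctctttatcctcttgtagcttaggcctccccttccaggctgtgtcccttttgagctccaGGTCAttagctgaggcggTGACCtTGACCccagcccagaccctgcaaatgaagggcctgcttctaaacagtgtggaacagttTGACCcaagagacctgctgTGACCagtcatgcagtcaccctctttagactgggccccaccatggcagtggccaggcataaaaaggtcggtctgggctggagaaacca
Trh (chr4:126301763-126302012, minus strand): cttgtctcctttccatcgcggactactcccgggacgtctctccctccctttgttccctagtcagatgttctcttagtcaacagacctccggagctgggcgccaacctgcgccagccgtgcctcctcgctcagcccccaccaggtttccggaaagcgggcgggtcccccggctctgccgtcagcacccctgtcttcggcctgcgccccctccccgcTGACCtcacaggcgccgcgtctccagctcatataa
Oxt held 5 copies of the TGACC core, Trh held 1 and Avp held 0, whereas Avp held 1 CACGTG. Of 33469 promoter stretches of this length in the table, 35.4% held TGACC and 5.59% held CACGTG. Avp and Oxt are neighbours on chromosome 3 and are read toward each other. These matches describe the sequence only.

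Levels are given as log2 signal above the median of the array, so that 0 is the median probe set of that array and 1 is a doubling. A level above 0 is not a call of detection, and because binding is unequal among probe sets, the levels of different genes are not ranked against each other. In these tissue samples, fewer cells of a type and less RNA per cell cannot be told apart. The array medians lay between 6.21 and 6.30 on the log2 scale before they were subtracted. Of the defining ARC peptides, Npy exceeded the array median on 12 of 12 arrays and Pomc on 0 of 12, and Agrp and Kiss1 had no probe set of their own symbol alone in the annotation used here. By Taqman RT-PCR the paper reports high expression of Pomc, Npy, Agrp and Cartpt in its captured tissue, without printed data. Recuperated array 4 stood apart. Of 10 ARC genes 9 were at their lowest there, and their mean was 0.28, where the other arrays had 2.24 to 2.65. Of 5 genes of the ventromedial nucleus (VMN) 5 were at their highest there, and their mean was 3.52, where the other arrays had 0.09 to 1.65. Differences of single genes and correlations that moved by over 1.5 times without this array are also given without it. Median differences over lists of genes were computed with all arrays only.

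Pmch varied more between animals than almost any other transcript on the arrays. Its levels on recuperated arrays 1 to 6 were 2.59, 4.80, 0.23, 3.00, 1.57 and 1.20, and on control arrays 1 to 6 they were -0.34, 0.66, 1.35, 2.52, 0.90 and -0.70. Recuperated array 2 was highest and control array 6 lowest, a span of 5.50 on the log2 scale or 45.3-fold. Pmch lay above the array median on 6 of 6 recuperated and 4 of 6 control arrays. In order, recuperated arrays 2, 4 and 1 came first, and control array 4 followed them closely, at 2.52 against 2.59 on recuperated array 1. The groups overlapped, since 3 of the 6 recuperated arrays lay above every control array and the other 3 lay within the control range.

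The spread was also wide among controls. Over the 6 control arrays alone, the standard deviation of Pmch was 1.17, where the median probe set had 0.28. Only 67 of 31042 probe sets, and 18 of the 15622 brighter ones that exceeded the median of 6 or more arrays, had a larger standard deviation among controls. Within both groups together the standard deviation was 1.40, and 21 probe sets exceeded it. The labels name no slide or scan date, so a technical batch behind this spread could not be examined.

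As a description, Pmch averaged 2.23 ± 1.60 in recuperated and 0.73 ± 1.17 in control arrays (log2 above the array median, SD, n = 6 each). The difference of the means was 1.50, or 2.83-fold, and the medians were 2.08 in recuperated and 0.78 in control arrays. Leaving out 1 array at a time moved the difference of means between 0.99, without recuperated array 2, and 1.90, without recuperated array 3. Without recuperated array 4, whose VMN and ARC genes stood apart, the recuperated mean was 2.08 ± 1.74 (SD, n = 5) and the difference 1.35.

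**Figure D1:**
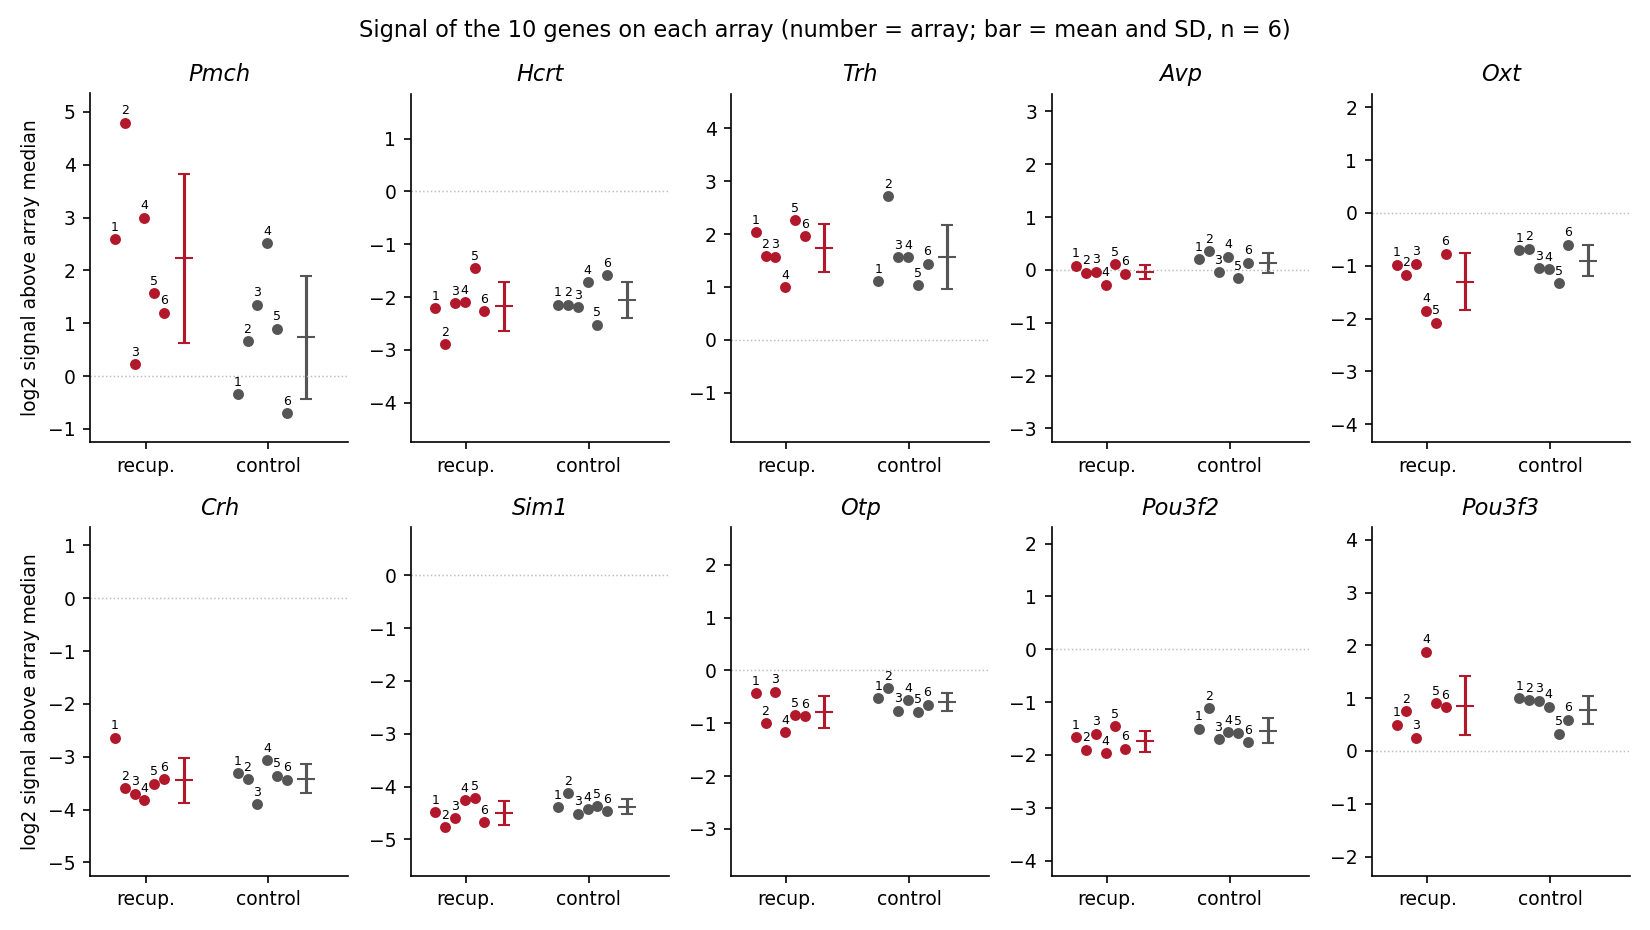
Log2 signal above the array median (vertical axis) of each of the 10 genes on 6 recuperated arrays (red, left) and 6 control arrays (grey, right). Numbers are array numbers, bars are the mean and SD of each group, the dotted line is the array median, and every panel spans the same number of log2 units. Pmch spreads over 5.50 log2 units, whereas Avp spreads over 0.64.

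Hcrt, the orexin precursor of the same lateral region, was dim, and it was lowest on the array where Pmch was highest. It ranged from -2.89 through a median of -2.16 to -1.45 in recuperated arrays, and from -2.52 through -2.14 to -1.59 in control arrays. Its signal lay below the array median on every array, and the groups overlapped. The means were -2.17 ± 0.46 in recuperated and -2.05 ± 0.34 in control arrays (SD, n = 6 each), a difference of -0.12 with a 95% interval of -0.59 to 0.34 from limma (exact two-sided permutation test, p = 0.613; adjusted p = 0.999 from limma over all probe sets). That array was recuperated array 2, without which the Hcrt difference was 0.02, and without recuperated array 5 it was -0.27.

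Other genes of lateral hypothalamic neurons were also set beside Pmch. Cartpt, which encodes a peptide precursor found in many MCH neurons and also in ARC neurons, lay between 6.56 and 6.76 on all arrays other than recuperated array 4, where it was 4.85, while Pmch on that array was the second highest. Tacr3, the neurokinin B receptor gene, was -1.55 ± 0.36 in recuperated and -1.40 ± 0.36 in control arrays (SD, n = 6 each). Lhx9, a homeobox gene of orexin neurons in mouse, was -3.13 ± 0.53 in recuperated and -3.53 ± 0.35 in control arrays (SD, n = 6 each). Neither difference had a p under 0.05 (p = 0.496 for Tacr3 and p = 0.173 for Lhx9, exact permutation tests). Nptx2, another gene of the list, had no probe set of its own symbol alone. Of 7 measured genes in a lateral hypothalamic list of 8, the 6 other than Pmch had a median difference of -0.14 against -0.03 over all probe sets. Of these 6, 2 were lowest on recuperated array 4, Cartpt and Nts, with Nts at -0.66 there against 1.50 to 2.44 elsewhere. The median was not computed without that array, so no lean of the list is read from it. At 1.3-fold and P under 0.05 from limma 0 of the 6 passed, and with 2.47% of all probe sets passing, a count of 0 in so short a list says nothing particular to it.

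Of the 9 members other than Pmch, 0 passed the study's threshold of 1.3-fold and P under 0.05 with limma, where 2.47% of all probe sets passed it. By limma 0 of the 9 had an adjusted p under 0.05, as did 0% of all probe sets (1071 had an unadjusted p under 0.05), and 0 of the 9 had an unadjusted p under 0.05 by limma, by the methods' t-test or by the exact permutation test, whose smallest possible p is 0.00216. The difference was positive for 2 of the 9 and negative for 7, with a median of -0.12. Differences over all probe sets also leaned negative, with 13464 of 31042 above 0. Every adjusted p of a member was 0.999 from limma.

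Trh, which encodes the releasing hormone of the thyroid axis and is used by neurons of the PVN and of other hypothalamic nuclei, exceeded the array median on each of the 12 arrays. It ranged from 1.00 through a median of 1.77 to 2.26 in recuperated arrays, and from 1.03 through 1.50 to 2.72 in control arrays. Control array 2 was the highest of all and recuperated array 4 the lowest. The means of 1.74 ± 0.45 in recuperated and 1.57 ± 0.61 in control arrays (SD, n = 6 each) differed by 0.17 with a 95% interval of -0.42 to 0.75 from limma (exact permutation test, p = 0.613). Single arrays moved this difference widely, to 0.06 without control array 5 and likewise without recuperated array 5, to 0.07 without control array 1 and 0.10 without recuperated array 1, and to 0.31 without recuperated array 4 and 0.40 without control array 2.

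Avp, the vasopressin precursor gene, sat at the array median and barely varied. It ranged from -0.28 through a median of -0.04 to 0.11 in recuperated arrays, and from -0.15 through 0.18 to 0.36 in control arrays, above the array median on 2 of 6 and 4 of 6. Its within-group standard deviation of 0.17 was small for these arrays, since only 7.65% of all probe sets had a smaller one. The means of -0.04 ± 0.14 in recuperated and 0.13 ± 0.19 in control arrays (SD, n = 6 each) differed by -0.17 with a 95% interval of -0.43 to 0.09 from limma (exact permutation test, p = 0.106).

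Oxt, the oxytocin precursor gene, was the only member other than Pmch whose difference reached 1.3-fold. It ranged from -2.08 through a median of -1.08 to -0.77 in recuperated arrays, and from -1.33 through -0.88 to -0.60 in control arrays. Recuperated arrays 5 and 4, at -2.08 and -1.85, lay below every control array, and the other 4 lay within the control range. The means of -1.30 ± 0.53 in recuperated and -0.90 ± 0.29 in control arrays (SD, n = 6 each) differed by -0.40 with a 95% interval of -0.89 to 0.09 from limma (exact permutation test, p = 0.156). The difference was -0.24 without recuperated array 5, -0.29 without recuperated array 4 and -0.25 with array weights. Without recuperated array 6 it was -0.50 and passed the study's threshold, with an adjusted p of 0.9997 from limma.

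Crh, which encodes the corticotropin-releasing hormone of the adrenal axis, read low on every array. Its probe set stood at a percentile of 3.49 to 16.0 on each array, and its levels ran from -3.82 through a median of -3.55 to -2.64 in recuperated and from -3.90 through -3.39 to -3.06 in control arrays. Recuperated array 1 was the highest, and the other 5 recuperated arrays lay between -3.82 and -3.42. The group means of -3.45 ± 0.42 in recuperated and -3.41 ± 0.27 in control arrays (SD, n = 6 each) differed by -0.03 with a 95% interval of -0.45 to 0.38 from limma (exact permutation test, p = 0.890), and by 0.012 after quantile normalization between arrays. With 1 array left out it lay between -0.19, without recuperated array 1, and 0.04, without recuperated array 4.

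Among the transcription factors, Sim1, which in mouse is required for the neurons of the PVN and supraoptic nucleus to form, gave almost no signal. On every array its probe set lay within the lowest 1.18% of all probe sets, between -4.77 and -4.22 in recuperated and between -4.51 and -4.12 in control arrays. Otp, a homeobox gene needed for the same neurons in mouse and also active in ARC neurons, lay below the array median on all arrays, from -1.17 through a median of -0.86 to -0.40 in recuperated and from -0.78 through -0.61 to -0.33 in control arrays. Of the 6 recuperated arrays, 4 lay below every control array, yet recuperated arrays 1 and 3, at -0.43 and -0.40, lay near the top of the control range. The difference was -0.18, with a 95% interval of -0.51 to 0.14 from limma (exact permutation test, p = 0.232). Without recuperated array 4, where Otp was lowest, the difference was -0.11.

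Pou3f2 and Pou3f3 encode related POU-domain factors, of which Pou3f2 acts after Sim1 and Otp in PVN neurons of mouse. Pou3f2 ranged from -1.97 through a median of -1.77 to -1.46 in recuperated arrays, and from -1.76 through -1.58 to -1.11 in control arrays. Of 6 recuperated arrays, 3 lay below every control array, and the difference was -0.21 with a 95% interval of -0.50 to 0.09 from limma (exact permutation test, p = 0.132). Without control array 2, where Pou3f2 was highest, it was -0.12. Pou3f3, also known as Brn1, was taken in the study as a marker of the PVN, and Nr5a1, or Sf-1, as a marker of the VMN. The paper reports that neither was detected in the captured ARC, without printed data. Here Nr5a1 exceeded the array median on 1 of 12 arrays, recuperated array 4, at 2.60 against -2.91 to -0.28 on the others. The Pou3f3 signal exceeded the array median on each of the 12, and for neither gene is this a call of detection. Pou3f3 ran from 0.25 through a median of 0.80 to 1.88 in recuperated and from 0.33 through 0.90 to 1.00 in control arrays. The highest value was on recuperated array 4, where Pou3f2, Otp, Avp and Trh were each at their lowest. Its difference of 0.08 (95% interval -0.42 to 0.57 from limma; exact permutation test, p = 0.827) was -0.13 without that array and 0.20 without recuperated array 3.

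**Figure D2:**
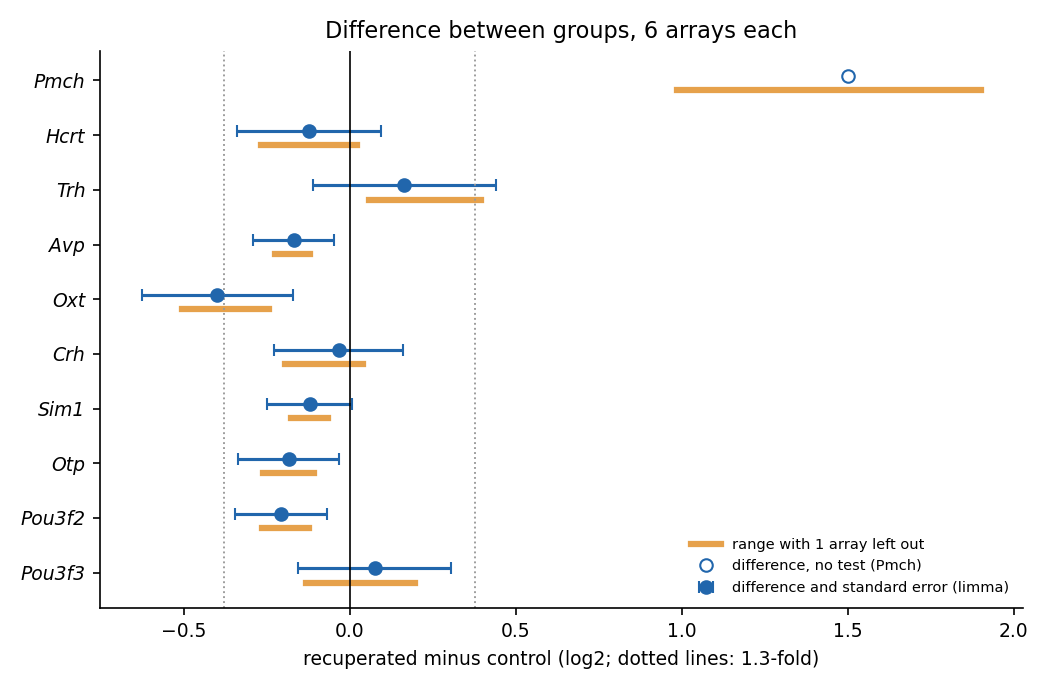
Difference between the means of 6 recuperated and 6 control arrays (horizontal axis, log2) for each gene, where bars are standard errors given by limma, except for Pmch, whose difference is a description (open point). Orange lines span the differences found when 1 array is left out, and dotted lines mark 1.3-fold. Pmch lies at 1.50, and the other 9 genes lie between -0.40 and 0.17.

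Several PVN genes had their extreme values on the same 2 arrays, control array 2 and recuperated array 4. Pmch had its own on recuperated array 2 and control array 6, but was second highest on recuperated array 4. Sim1 was lowest on recuperated array 2, where Pmch was highest, and Oxt highest on control array 6, where Pmch was lowest. Control array 2 held the highest value of 5 of the 10 members, Trh, Avp, Sim1, Otp and Pou3f2, and recuperated array 4 the lowest of 4, Trh, Avp, Otp and Pou3f2. Other PVN genes went the other way. Of 11 genes in the PVN and supraoptic list, members among them, 5 were lowest and 3 highest on recuperated array 4. These 3 were Pou3f3, at 1.88, Arnt2, at 2.49, and Nos1, at -0.53. Arnt2 was at its lowest on control array 2, at 1.18. Over the 45 pairs of members, 0 had an adjusted permutation p under 0.05 by either Pearson's r or Spearman's rho, and 5 and 6 pairs had an unadjusted p under 0.05. The highest correlation was that of Avp with Pou3f2 (r = 0.77, permutation test, p = 0.00335, adjusted p = 0.0982; rho = 0.72, p = 0.00941, adjusted p = 0.155; n = 12). It was 0.82 within recuperated and 0.63 within control arrays, and 0.46 without control array 2 and recuperated array 4. Otp correlated with Avp at r = 0.74 (permutation test, p = 0.00655, adjusted p = 0.0982; rho = 0.73, p = 0.0102) and with Pou3f2 at r = 0.73 (p = 0.00616, adjusted p = 0.0982; rho = 0.64, p = 0.0267). Without the same arrays these were 0.45 and 0.48. The neighbours Avp and Oxt gave r = 0.48 over all arrays (permutation test, p = 0.119, adjusted p = 0.430; rho = 0.52, p = 0.0904), with 0.11 within recuperated and 0.72 within control arrays, and r = 0.12 without control array 2 and recuperated array 4, or 0.27 without recuperated array 4 alone.

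Some transcripts from outside the ARC were also at their highest on control array 2, and others of the same lists were not. Of 7 pituitary genes 3 were highest there, and the mean of the 7 was 0.07, where the other arrays had -1.92 to -0.17. Of 2 measured genes of the premammillary and mammillary nuclei 1 was highest there, and Barhl1, the other, was highest on recuperated array 5. Of those highest on control array 2, the genes with the widest span were Hdc, the histamine synthesis enzyme of tuberomammillary neurons, at 2.65 against -2.40 to 0.76 on the other arrays, and the pituitary hormone subunit genes Cga, at 4.30 against -2.08 to 4.21, and Tshb, at 3.70 against -1.67 to 3.43. The part of such tissue in the levels of the PVN genes was not tested.

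**Figure D3:**
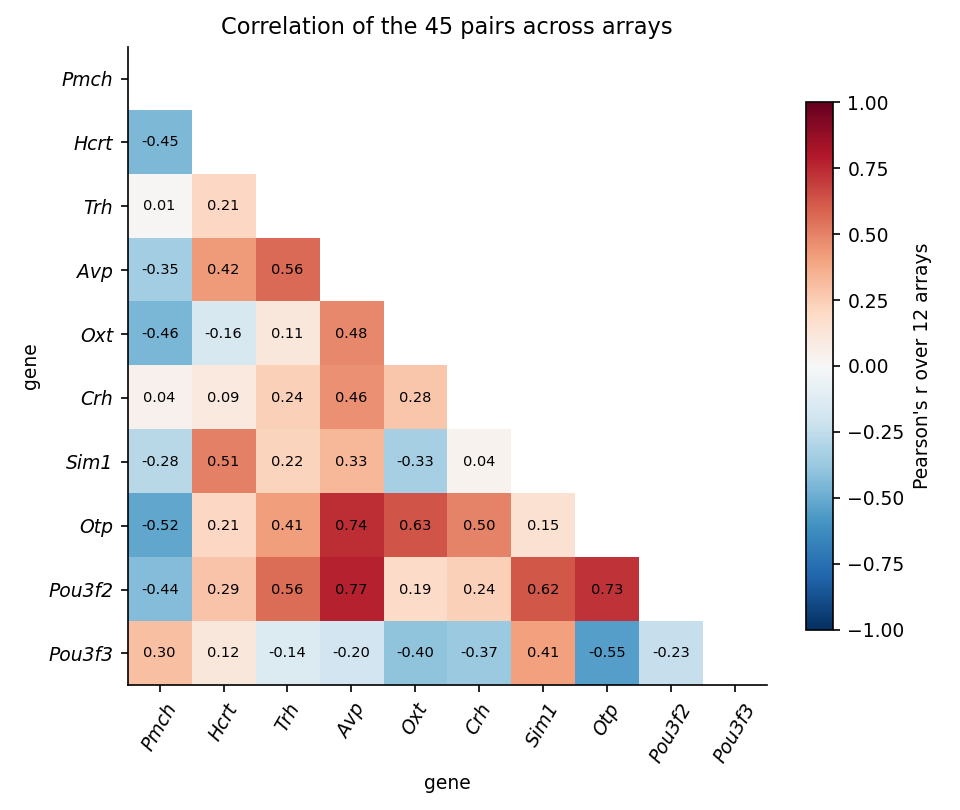
Pearson's r over 12 arrays for each of the 45 pairs of genes (both axes list the genes, colour runs from -1 in blue to 1 in red). Avp, Otp and Pou3f2 hold the 3 highest values, 0.73 to 0.77, and Pmch is negative with Otp at -0.52 and with Oxt at -0.46.

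Pearson's r of Pmch with the other members did not exceed 0.52 in size. These tests ran over all 12 arrays with the group difference on which Pmch was chosen left in, so values with the group means removed are given beside them. The r ran from -0.52 for Otp (permutation test, p = 0.0793, adjusted p = 0.397; rho = -0.54, p = 0.0739) to 0.30 for Pou3f3 (p = 0.340, adjusted p = 0.611; rho = 0.14, p = 0.667), and without recuperated array 2 and control array 6 these were -0.45 and 0.42. With the group means removed they were -0.42 and 0.29, and without recuperated array 4 -0.44 and 0.09. With Hcrt it was -0.45 (permutation test, p = 0.143, adjusted p = 0.430; rho = -0.24, p = 0.458), and 0.27 without recuperated array 2 and control array 6, the arrays farthest from the median of Pmch, and -0.43 with the group means removed. The lowest unadjusted p was by rank with Oxt (rho = -0.72, permutation test, p = 0.0103, adjusted p = 0.155; r = -0.46, p = 0.135), with r = -0.16 within recuperated and -0.66 within control arrays, -0.50 without the same 2 arrays and -0.30 with the group means removed.

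Pmch was then set against the mean level of 18 lists of genes that mark hypothalamic nuclei, other cell types and peptide handling, with Pmch itself left out of the lateral list. The correlations ran from -0.45 for the suprachiasmatic nucleus to 0.48 for endothelium, and -0.39 and 0.47 with the group means removed. The smallest adjusted p was 0.623 by permutation test with Pearson's r and 0.767 with Spearman's rho. These tests too left in the group difference on which Pmch was chosen, and none was run with the group means removed. For the VMN list r was 0.36 (permutation test, p = 0.242, adjusted p = 0.623; rho = 0.34, p = 0.275), for the zona incerta and thalamus list 0.34 (p = 0.275, adjusted p = 0.623; rho = 0.48, p = 0.120) and for the ARC list -0.34 (p = 0.241, adjusted p = 0.623; rho = -0.24, p = 0.458). Within recuperated and control arrays these were 0.49 and -0.01 for the VMN, 0.27 and 0.90 for the zona incerta and thalamus, and -0.23 and -0.04 for the ARC. Without recuperated array 2 and control array 6 they were 0.38, 0.28 and -0.48, and without recuperated array 4 they were 0.19, 0.52 and -0.23. With the group means removed they were 0.36, 0.56 and -0.19. The 6 other genes of the lateral list gave r = -0.36 (permutation test, p = 0.248, adjusted p = 0.623; rho = -0.30, p = 0.338), with -0.23 within recuperated and -0.89 within control arrays, -0.33 without recuperated array 2 and control array 6, -0.19 without recuperated array 4 and -0.33 with the group means removed. Recuperated array 2, the highest in Pmch, was at 1.21 in the VMN list, where arrays other than recuperated array 4 had 0.09 to 1.65. In the ARC list it was at 2.26, near the low end of the 2.24 to 2.65 of those arrays. In the dorsomedial list it was at 0.025, near the highest array, at 0.035, and 1 of the 4 genes, Gpr50, was highest on it. The part of dissection in its Pmch level was not tested.

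**Figure D4:**
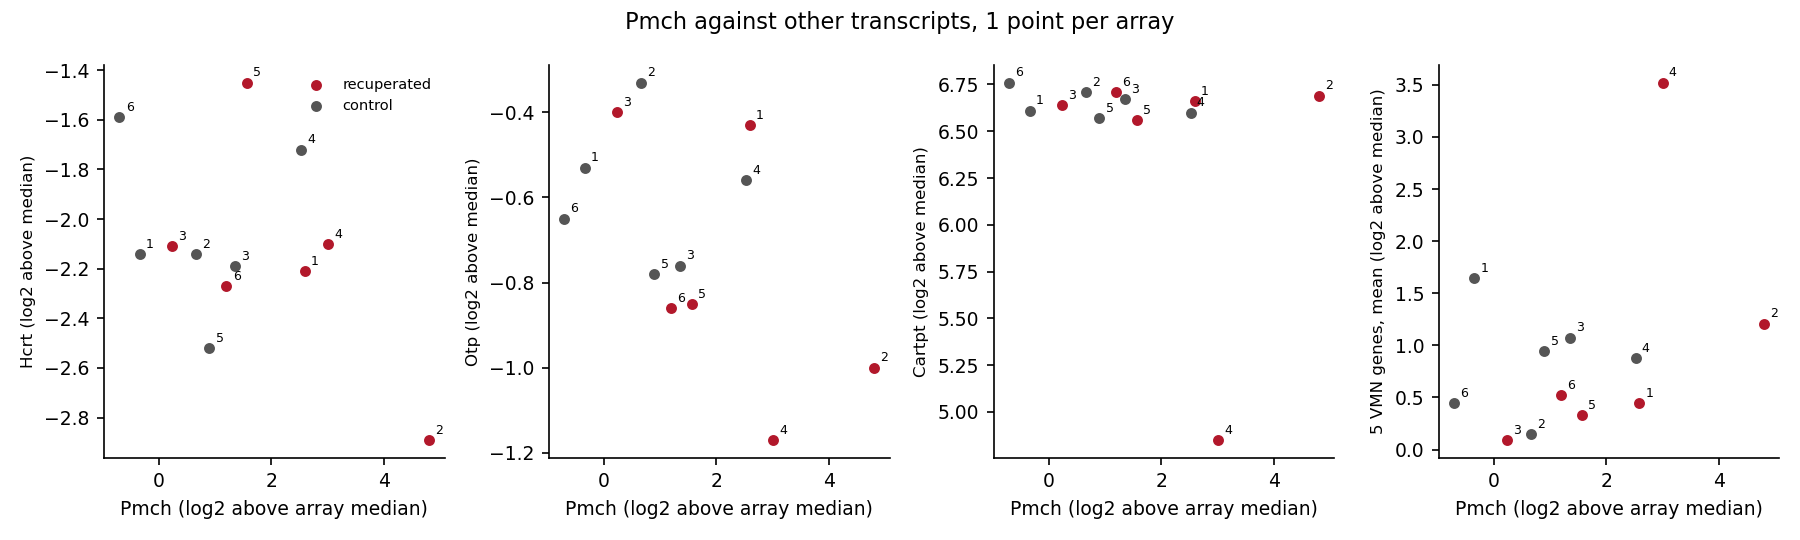
Level of Hcrt, Otp, Cartpt and the mean of 5 VMN genes (vertical axes) against Pmch (horizontal axes), all as log2 signal above the array median, 1 numbered point per array, recuperated in red and control in grey. Recuperated array 2 has the highest Pmch with VMN genes at 1.21, and recuperated array 4, the second highest, has VMN genes at 3.52 and Cartpt at 4.85.

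The genes whose pattern was most like that of Pmch were ranked by Pearson's r among 9046 other genes that exceeded the median of 6 or more arrays, as a description. Over 12 arrays they were Tmed8 (r = 0.82), Wnk1 (0.81), Brsk1 (0.80), Dnajc13 (0.79) and Rnd1 (0.79). Over the 11 arrays without recuperated array 4 they were Flrt3 (r = 0.90), Rgs10 (0.87), Phf14 (0.87), Tmed8 (0.84) and Wnk1 (0.83). These r values were picked as the highest of 9046 over 11 or 12 arrays, so they are large by selection, and they were not tested. The points share the group difference of Pmch, and none of these genes spanned more than 1.15 on the log2 scale over the 12 arrays, against 5.50 for Pmch.

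Receptors for the peptides and their binding protein were mostly dim. Of 12 listed, 9 were measured, of which 0 were higher and 1 was lower in recuperated arrays at the study's threshold by limma, where 1.20% and 1.27% of all probe sets were (371 and 395; 434 and 302 without centring, 447 and 313 after quantile normalization), and 0 of the 9 passed adjustment. The one that passed was Avpr2, the vasopressin receptor of the kidney collecting duct, at -3.09 ± 0.27 in recuperated and -2.47 ± 0.46 in control arrays (SD, n = 6 each), a difference of -0.62 (exact permutation test, p = 0.0195; adjusted p = 0.999 from limma). It passed the threshold in all 12 fits that left out 1 array, but lay below the array median on every array, and it is named because it passed. Mchr1, the MCH receptor gene, was below the array median on 12 of 12 arrays, between -2.95 and -1.96 in recuperated and between -2.71 and -2.13 in control arrays, and differed by -0.08 (exact permutation test, p = 0.673), or by -0.20 to 0.002 with 1 array left out. The median difference of the 9 was -0.08, against -0.03 over all probe sets.

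Genes that process and store these peptides were bright, though not all were even over the arrays. All 10 measured of 11 listed lay above the array median on every array, and 0 passed the threshold in either direction by limma, with a median difference of 0.03. Pcsk2, a convertase that cuts peptide precursors, had the smallest p of the 10 by limma, at 1.37 ± 0.48 in recuperated and 1.60 ± 0.32 in control arrays (SD, n = 6 each; exact permutation test, p = 0.361). Over the 12 arrays Pcsk2 ran from 0.70 to 2.15. Its difference was -0.23, and -0.39 without recuperated array 4. Next by limma came Chgb, a granule protein gene, at 6.58 ± 0.10 in recuperated and 6.49 ± 0.10 in control arrays (SD, n = 6 each; exact permutation test, p = 0.197).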

How the data were processed

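A table of log2 values, deposited by the authors to 2 decimals, gave 31099 probe sets on 12 arrays. RMA, which corrects background, equalises the distributions of the arrays and summarises probes, had been run on the scans. Affymetrix Expression Console is named in the submitters' processing notes, and GeneSpring GX in the paper's methods. The study took forward only genes that met its threshold by GCOS, RMA and GC-RMA alike. GCOS and GC-RMA values were not analysed here, so counts at that threshold rest on RMA values alone. After 57 control probe sets were removed, each array was centred on its median of the remaining 31042. Group differences came from limma 3.58.1 (lmFit and eBayes, R 4.3.3) without covariates, with Benjamini-Hochberg adjustment across all 31042. Single genes had the exact two-sided permutation test, and relations across arrays 100000 permutations (Python 3.11.15, numpy 2.4.6, scipy 1.17.1). The fit was tested on simulated data.

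The members and gene lists were chosen with earlier results of these data known. Beside the members, genes were named by rule: receptor and processing genes past the threshold or, with none, the 2 with the smallest p; Cartpt, Lhx9, Tacr3 and Nptx2; the 5 most like Pmch; and marker genes extreme on an array that a result turns on. Pomc, Agrp, Kiss1 and Mchr1 are outside that rule and were picked after seeing values. In the platform annotation 20826 probe sets carried 1 symbol, 436 several and 9780 none. The alternatives tried were uncentred values, quantile normalization, array weights, leaving out dim probe sets, the t-test of the methods, the animal number as a block, linear means, averaging a gene's probe sets, and leaving out each array. Arrays give no read depth, and their number limits the precision.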

Additional observations from a re-analysis of the deposited data

Results flagged for a closer look

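In each group of 6 arrays, the highest or lowest value of a member was set against the others by Dixon's ratio, for 20 groups in all, of which chance flags about 1 in 20. Crh on recuperated array 1, at -2.64, lay apart from the other recuperated arrays, at -3.82 to -3.42. Trh on control array 2, at 2.72, lay apart from the other control arrays, at 1.03 to 1.56. Sim1 on the same array, at -4.12, lay apart from -4.51 to -4.37, at the very bottom of the array's range.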

How the results depend on the processing

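The difference of Pmch, on which it was chosen, ranged from 0.99 to 1.90 with 1 array left out and from 1.44 to 1.88 otherwise. Of the 9 other members, 6 kept their direction in the 18 alternatives, of which the replicate block and the mean over probe sets cannot change it here. Crh, at -0.03, became 0.012 under quantile normalization and 0.0028 with linear means, and ranged from -0.19 to 0.04 with 1 array left out (0.017, 0.041 and 0.037 without recuperated arrays 3 and 4 and control array 4). Pou3f3, at 0.08, became -0.042 with array weights and ranged from -0.13 to 0.20 (-0.13 and -0.015 without recuperated array 4 and control array 5). Hcrt, at -0.12, ranged from -0.27 to 0.02 (0.022 without recuperated array 2). The cause was not tested. Over all probe sets, 766 met 1.3-fold and P under 0.05, 268 without dim probe sets, where fewer were tested, 506 with the methods' t-test, and 701 to 1084 with 1 array left out. Of the members other than Pmch, 0 met it, and 0 to 1 with 1 array left out, the 1 being Oxt without recuperated array 6. With the animal number as a replicate block 1 did, Oxt at -0.40 (adjusted p = 0.999 from limma), and over all probe sets 863 did. The labels do not say whether same-numbered animals were paired. In deviations from the group means, same-numbered arrays correlated at -0.16 to 0.08 and 0 of 6 pairs exceeded 0.1, which cannot exclude a pairing. By limma 0 probe sets passed adjustment, and 1 did without recuperated array 2. Signal near background limits Sim1 and Crh.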
